A study of Mus musculus with 4 samples.

Results

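The regions described here were accessible in wild-type mouse embryonic stem cells at day 0 and listed in no other library of the study. All 4 peak lists were pooled, intervals sharing 1 bp or more were merged, and regions with a peak in wild type at day 0 and none in the other 3 libraries were kept. The members were thus chosen by measured peak presence. This gave 16007 members of 328597 merged regions, or 4.87% of all regions, and each member consisted of 1 wild-type peak. Their number and widths are therefore descriptions without a test.

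The 4 groups were wild type at day 0, Cdc14a and Cdc14b knockout (labelled Cdc14ab KO) at day 0, knockout at day 5 and wild type at day 5, with 1 library each. Cdc14a and Cdc14b encode phosphatases that counter cyclin-dependent kinases. Day 0 cells were kept in medium with LIF, a cytokine that holds stem cells pluripotent, and day 5 cells were taken from N2B27 medium with EGF and FGF2, a medium used for neural differentiation. Nuclei were assayed with the 10x Genomics Multiome kit, and the single-nucleus ATAC-seq part, in which a transposase cuts open DNA, gave the peaks. All cells came from blastocyst-derived lines first grown on feeder cells, and every library was labelled clone 3. With 1 library per group, an effect of the knockout or of time and a difference between cultures or libraries cannot be told apart. No value here has a replicate check, and the intervals cover counting error only.

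Open chromatin marks promoters, where transcription starts, and enhancers, which act from a distance and change with cell state. Many promoters active in all cell types lie in CpG islands, stretches rich in the CG dinucleotide. Promoters used in 1 tissue more often lack such islands and more often carry a TATA box. In stem cells, a network of transcription factors that includes OCT4, SOX2 and NANOG keeps the enhancers of pluripotency genes open, and leaving pluripotency closes many of them.

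Promoters that lay wholly inside a member are shown first, because they are where a member could be tied to a gene and read as sequence. Each line gives 250 bases before and 50 after an annotated gene start from RefSeq (GRCm38.p6, the coordinates of mm10), 5′ to 3′ on the strand of the gene. Capitals mark the motifs found on either strand, which are named after the sequences. Tmem262 encodes a membrane protein, Tlr1 a receptor of innate immunity, Tgtp2 an interferon-induced GTPase, Lce1d a protein of the skin surface, Pgk2 a sperm glycolytic enzyme and Cnot6l an mRNA deadenylase.
Tmem262 promoter (chr19:6079788-6080087, plus strand): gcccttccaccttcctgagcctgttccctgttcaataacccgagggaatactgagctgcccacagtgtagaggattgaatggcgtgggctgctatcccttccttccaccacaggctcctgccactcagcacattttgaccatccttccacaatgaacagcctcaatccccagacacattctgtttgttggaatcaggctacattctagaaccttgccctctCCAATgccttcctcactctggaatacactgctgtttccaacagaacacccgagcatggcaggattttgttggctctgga
Tlr1 promoter (chr5:64933509-64933808, minus strand): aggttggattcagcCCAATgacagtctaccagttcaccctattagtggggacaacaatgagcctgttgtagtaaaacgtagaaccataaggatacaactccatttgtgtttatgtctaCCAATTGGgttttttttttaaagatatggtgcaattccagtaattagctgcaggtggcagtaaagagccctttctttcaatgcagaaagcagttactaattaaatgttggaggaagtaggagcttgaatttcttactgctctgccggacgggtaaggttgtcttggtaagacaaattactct
Tgtp2 promoter (chr11:49064163-49064462, minus strand): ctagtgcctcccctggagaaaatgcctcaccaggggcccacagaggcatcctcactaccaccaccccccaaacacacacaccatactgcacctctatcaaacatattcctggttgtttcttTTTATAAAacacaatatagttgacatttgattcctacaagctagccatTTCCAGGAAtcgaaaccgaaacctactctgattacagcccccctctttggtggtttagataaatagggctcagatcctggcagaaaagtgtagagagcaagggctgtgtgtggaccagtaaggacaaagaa
Lce1d promoter (chr3:92687161-92687460, minus strand): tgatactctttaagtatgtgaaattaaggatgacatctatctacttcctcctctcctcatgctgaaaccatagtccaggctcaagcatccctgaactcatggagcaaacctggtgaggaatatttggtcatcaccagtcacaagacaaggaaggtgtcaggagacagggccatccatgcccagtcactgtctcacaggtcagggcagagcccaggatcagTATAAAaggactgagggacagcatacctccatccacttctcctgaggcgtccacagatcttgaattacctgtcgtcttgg
Pgk2 promoter (chr17:40208560-40208859, minus strand): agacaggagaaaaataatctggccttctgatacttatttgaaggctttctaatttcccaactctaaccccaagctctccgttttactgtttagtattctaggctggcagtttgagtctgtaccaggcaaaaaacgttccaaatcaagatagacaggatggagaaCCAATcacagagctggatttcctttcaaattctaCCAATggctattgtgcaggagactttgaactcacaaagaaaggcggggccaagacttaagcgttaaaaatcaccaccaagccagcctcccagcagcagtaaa
Cnot6l promoter (chr5:96161498-96161797, minus strand): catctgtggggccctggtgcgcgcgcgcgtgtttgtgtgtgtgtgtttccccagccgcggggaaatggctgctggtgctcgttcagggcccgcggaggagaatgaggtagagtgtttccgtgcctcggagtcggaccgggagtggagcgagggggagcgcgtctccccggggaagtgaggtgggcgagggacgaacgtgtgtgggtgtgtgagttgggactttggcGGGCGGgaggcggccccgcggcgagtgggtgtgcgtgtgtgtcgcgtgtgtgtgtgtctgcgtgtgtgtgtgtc

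The capitals mark a CCAAT box in Tmem262, Tlr1 and Pgk2, a TATA box (TATAAA) in Tgtp2 and Lce1d, a STAT motif (TTCCNGGAA) in Tgtp2 and a GC box (GGGCGG) in Cnot6l. In Tgtp2 the TATA match on 1 strand overlaps a match on the other. The first 5 promoters are poor in CpG, with observed over expected CpG ratios of 0.160 for Tmem262, 0.251 for Tlr1, 0.127 for Tgtp2, 0.113 for Lce1d and 0.291 for Pgk2. Cnot6l had a ratio of 1.09 and shows the other kind of promoter found among the members. At the first 5 genes no other library had a peak within 1 kb of the start. At Cnot6l the nearest peak of another library was 187 bp from the member. Tgtp2 and Lce1d belong to families with similar copies, so the assignment of their peaks is uncertain.

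Members also overlapped 14 of 1005 annotated microRNA hairpins. The mature sequences of 2 that lay wholly inside a member are shown because their families are widely studied (chosen after their values were seen), with the seed (bases 2 to 8) in capitals. let-7 microRNAs accumulate as stem cells differentiate and are held back by the LIN28 proteins, and miR-103 is made in many tissues.
mmu-let-7e-5p: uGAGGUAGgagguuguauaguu
mmu-miR-103-3p: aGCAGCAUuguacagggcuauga

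The Mirlet7e hairpin (chr17:17830352-17830444, plus strand) lay inside a member at chr17:17829727-17830577, 638 bp from the nearest peak of another library. Mir103-1 (chr11:35782396-35782481, plus strand) lay inside a member at chr11:35781892-35782591, 63 bp from the nearest other peak. The 14 hairpins lay under 16007 members. Regions listed in the day 0 knockout only (26155) overlapped 12, those of the day 5 knockout only (32999) 19 and those of wild type at day 5 only (30090) 19. The 111046 regions listed in all 4 libraries overlapped 167. These counts are not scaled to the number of regions. A peak over a hairpin shows open DNA and not that the microRNA was made.

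The number of peaks was 198860 for the day 0 wild type, 222257 for the day 0 knockout, 227878 for the day 5 knockout and 189571 for the day 5 wild type. Peaks carried no height or count, so read depth is unknown, and low depth and closed chromatin cannot be told apart where a peak is missing. Of 4 Y-linked genes with an annotated start (Eif2s3y, Uty, Ddx3y and Kdm5d), 3 had a start peak in the day 5 wild type, and the number was 0 in each of the other libraries. Whether both wild-type libraries stem from the same line was not tested, and the share of members, their location, the chromosomes and the Zfp42 locus are therefore also given without the day 5 wild type. Start peaks were listed at 7 of 7 core and 9 of 9 naive pluripotency genes in the day 0 wild type and in both knockout libraries, and at 6 of 7 and 8 of 9 in the day 5 wild type. Fibroblast markers, which feeder cells would carry, had start peaks at 7 of 9 genes in the day 0 wild type, 8 of 9 in each knockout library and 9 of 9 in the day 5 wild type. Macrophage genes had them at 4 of 8 genes in the day 0 knockout and at 3 of 8 in each of the other libraries. The part of other cells in the members was not tested.

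Members made up 8.05% of the wild-type day 0 peaks (95% exact binomial interval, 7.93 to 8.17). Without the day 5 wild type in the comparison, 9.54% of these peaks would be members. Without the day 5 knockout the share would be 11.2%, and without the day 0 knockout 17.7%, or 35252 peaks. The corresponding shares were 11.8% (11.6 to 11.9) for peaks listed in the day 0 knockout only, 14.5% (14.3 to 14.6) for the day 5 knockout only and 15.9% (15.7 to 16.0) for wild type at day 5 only. Most of the remaining wild-type day 0 peaks, 57.1% of the list, were shared with all 3 other libraries. A further 15.0% were shared with both knockout libraries and not with wild type at day 5. Only 1.42% were shared with wild type at day 5 alone, against 9.50% with the day 0 knockout alone.

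Width followed how widely a peak was shared. The median member was 839 bp wide (quartiles 749 and 892). Wild-type day 0 peaks shared with the day 0 knockout alone had a median of 852 bp, and those shared with all 3 libraries one of 882 bp (838 and 909). Peaks narrower than 500 bp made up 4.49% of the members and 1.05% of the peaks found in all 4 libraries. Member widths ran between 174 and 1339 bp. The other single-library regions were also narrow, with medians of 854 bp in the day 0 knockout, 867 bp in the day 5 knockout and 870 bp in wild type at day 5.

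**Figure D1:**
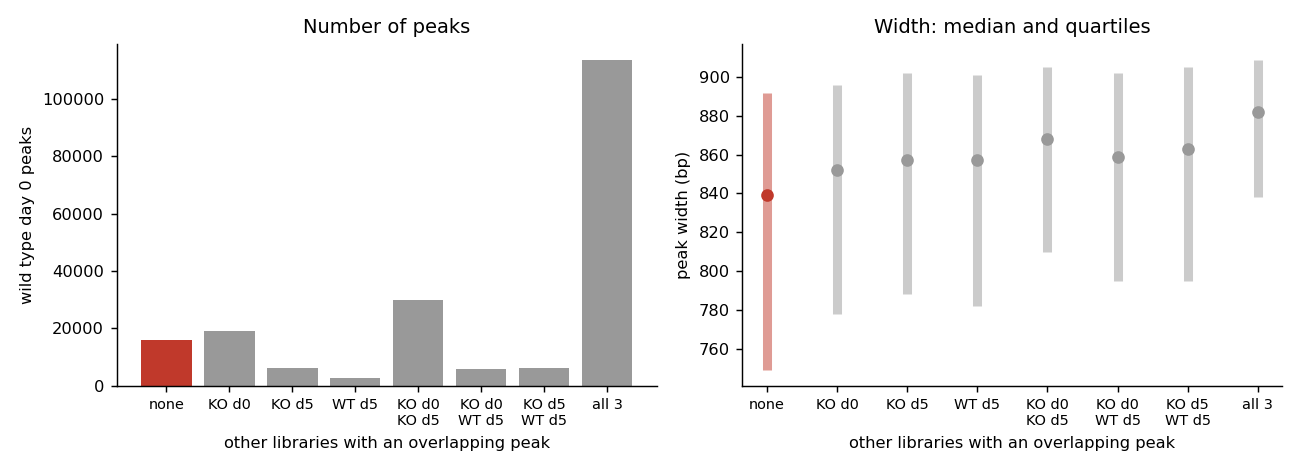
Wild-type day 0 peaks by the other libraries with an overlapping peak (KO, knockout; WT, wild type; d0 and d5, day 0 and day 5). The left panel gives the number of peaks, with the 16007 members in red, and the right panel gives the median width (point) and quartiles (bar) in bp on an axis that does not start at 0. Members have the lowest median, 839 bp, against 882 bp for peaks shared with all 3 libraries.

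Of the 10 widest members, 5 lay inside genes. The widest (chr11:43700255-43701593, 1339 bp) lay in Pwwp2a, which encodes a reader of the histone variant H2A.Z. Others lay in Dock10 (1274 bp), an activator of small GTPases, in Nudt2 (1273 bp), a hydrolase of dinucleotides, in Runx2 (1217 bp), the master regulator of bone formation, and in Poteg (1198 bp). The other 5 lay between genes, at 3042 bp from Otogl, 4487 bp from Larp4, 82909 bp from Sgcz, 95565 bp from Tmem215 and 206139 bp from Prok2. The widest region listed in the day 0 knockout only had 2030 bp.

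Members mostly sat close to chromatin that was open in the other libraries. The median gap to the nearest peak of another library was 1259 bp, and 25.6% of members (24.9 to 26.3) lay within 500 bp of one. At least 1 other library had a peak within 10000 bp of 93.8% of the members, and all 3 did so for 80.7%. Only 993 members had none in that range. Regions of the day 0 knockout only had a median gap of 1421 bp, whereas those of the day 5 knockout only (2285 bp) and of wild type at day 5 only (2766 bp) lay farther away. Such gaps also depend on how many peaks the other libraries list. No baseline of random positions was computed, so the shares above do not tell whether members lie closer than other positions would. The sets also differed in the median gap to the nearest shared peak of their own library. It was 1926 bp for members and 2025 bp for the day 0 knockout only. For the day 5 knockout only it was 3405 bp, and for wild type at day 5 only 4686 bp. A region listed in all 4 libraries stood within 5 kb of 58.5% of members, against 53.8% for the day 0 knockout only, 39.9% for the day 5 knockout only and 35.1% for wild type at day 5 only. The remotest members lay 153734 bp (chr18:85877006-85877926), 153640 bp (chr10:47093681-47094607) and 152655 bp (chr2:56280930-56281750) from any peak of another library, all between genes.

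**Figure D2:**
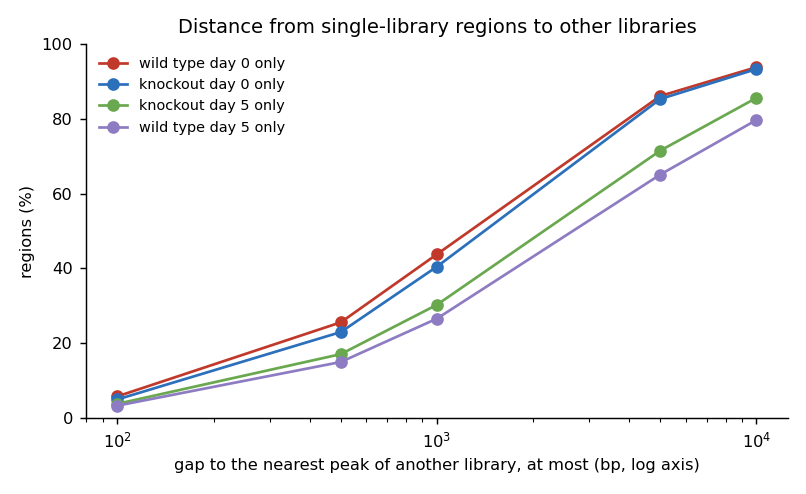
Share of the single-library regions (%) whose gap to the nearest peak of another library is at most the distance on the log axis (bp). Members (red) lie nearest, with 25.6% within 500 bp and 93.8% within 10000 bp, and regions of wild type at day 5 only lie farthest, with 15.0% and 79.7%.

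At the edge of the rule, 7 members touched a peak of another library without sharing a base, such as chr15:102044733-102045288 and chr3:9863274-9863756. In all, 80 members lay 10 bp or less from another peak. On the other side of the rule, 72 wild-type day 0 peaks were left out although their largest overlap was 10 bp or less. Examples with an overlap of 1 bp are chr11:49884762-49885399 and chr13:19584687-19585206. These cases lie where a small shift of a peak edge changes membership.

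Distances between members have no baseline here, so they do not tell whether members cluster. Another member lay within 5000 bp of 19.3% of members and within 50000 bp of 65.3%. The genome split into windows of 100 kb held members in 9761 windows, of which 5758 had a single one. Just 7 windows held 8 members, the highest number.

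Members lay at gene starts less often than peaks shared by all libraries and more often than the other single-library regions. Of the members, 388 (2.42%, 2.19 to 2.67) overlapped the 1 kb on each side of an annotated protein-coding start, 53.3% lay elsewhere in gene bodies and 44.2% between genes. Without the day 5 wild type, 2.45% lay at starts. Regions of the day 0 knockout only had 1.39% at starts (1.25 to 1.54), those of the day 5 knockout only 1.35% (1.23 to 1.48) and those of wild type at day 5 only 1.14% (1.02 to 1.26). Wild-type day 0 regions shared with at least 1 other library had 8.39% at starts, and regions of all 4 libraries 12%. Regions shared by both day 0 libraries and no other had 2.82% (2.59 to 3.07), an interval that overlaps that of members. The difference between members and the other single-library regions was smaller away from shared peaks. With at least 500 bp to every peak of another library, the shares were 1.13% (0.951 to 1.34) for members, 0.973% (0.842 to 1.12) for the day 0 knockout only, 1.00% (0.887 to 1.13) for the day 5 knockout only and 0.837% (0.729 to 0.956) for wild type at day 5 only. With only the widest peaks kept in equal numbers per library, the shares were 3.29% for members, 1.09% for the day 0 knockout only, 1.06% for the day 5 knockout only and 2.14% for wild type at day 5 only. Members at starts were narrow, with a median of 714 bp, against 836 bp in gene bodies and 848 bp between genes. A further 203 members (1.27%) lay at the start of a long noncoding RNA and away from protein-coding starts.

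A member lay at the start of 397 genes, or 2.27% of the 17492 protein-coding genes with an annotated start. At 302 of them (76.1%) all 3 other libraries also had a peak within 1 kb of the start. Whether the day 0 wild type had a further peak at these starts was not counted over all 302 genes. It is given below for the list genes. At 66 genes, or 0.377% of all genes, the member was the sole peak of any library at the start. Regions of the day 0 knockout only lay at the starts of 355 genes, those of the day 5 knockout only at 436 and those of wild type at day 5 only at 329. Of these genes, 93, 191 and 120 had no start peak of another library. A member covered the start base itself in 87 of the 397 genes.

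Among the gene lists, 8 of 214 genes with an annotated start (3.74%) had a member there, against 2.27% of all genes (not tested). They were Kmt2a, a histone H3K4 methyltransferase, Elf5, a trophoblast transcription factor, Mycn, a MYC family factor of stem cell growth, Lhx2, a forebrain regulator, T (brachyury), the mesoderm factor, Ppia, a prolyl isomerase used as a housekeeping control, the imprinted adaptor gene Grb10, and Otx2, a factor of the formative state and forebrain. In 0 of the 8 did the member cover the start base. The widest was at Kmt2a (chr9:44879517-44880407, 891 bp), where its centre lay 1327 bp into the gene, and the narrowest at Otx2 (chr14:48667929-48668513, 585 bp), centred at -577 bp from the start, where a negative distance is upstream. At 7 of the 8 genes all 3 other libraries had a start peak as well. At these 7 the day 0 wild type had between 2 and 5 start peaks, the member among them. The exception was T, with 1 start peak for the day 0 wild type, 0 for the day 0 knockout, 2 for the day 5 knockout and 1 for the day 5 wild type. The member at T (chr17:8432928-8433616, 689 bp) also overlapped the annotated gene LOC115486424.

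The 10 genes with the widest member as the sole start peak were Slamf7, 1520401A03Rik, Tmem262, Gm2396, Gm11127, Hcst, Gm4606, Vmn1r211, F8 and Olfr818, with widths between 937 and 981 bp. Slamf7 encodes an immune cell surface receptor, Hcst an adaptor of natural killer cell receptors and F8 coagulation factor VIII. Vmn1r211 and Olfr818 encode a pheromone receptor and an odorant receptor of large families whose copies can share reads. The member covered the start base at Tmem262, Gm11127, Hcst (chr7:30418934-30419882), Vmn1r211, F8 (chrX:75379456-75380393) and Olfr818, and not at the others. At Slamf7 (chr1:171647440-171648420) it lay just inside the gene, centred 1069 bp from the start.

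The promoter windows inside members were mostly poor in CpG. Of 62 windows, belonging to 60 genes, 55 had a CpG ratio under 0.5 (88.7%, 78.1 to 95.3), against 18.1% (17.5 to 18.8) of windows inside regions of all 4 libraries and 45.5% of all 21263 windows. Their median GC content was 51.3%, against 62.0% inside regions of all 4 libraries and 45% in windows that no peak touched. This was shared with the other single-library regions, whose windows had CpG ratios under 0.5 in 97.6% (day 0 knockout only, 85 windows), 89.0% (day 5 knockout only, 136 windows) and 84.5% (wild type at day 5 only, 129 windows) of cases. It was also shared with windows touched by no peak, of which 93.4% had a ratio under 0.5.

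Motif letters were searched in the same windows. A GC box (GGGCGG, either strand) was found in 25.8% of windows inside members (15.5 to 38.5), against 68.0% inside regions of all 4 libraries, 46.2% of all windows and 7.51% of windows touched by no peak. TATA boxes (TATAAA) were found in 22.6% (12.9 to 35.0), against 6.06% inside regions of all 4 libraries, 12.6% of all windows and 26.0% of windows touched by no peak. In windows inside the other single-library regions, GC boxes were found in 17.6% (day 0 knockout only), 22.1% (day 5 knockout only) and 17.8% (day 5 wild type only), and TATA boxes in 14.1%, 19.1% and 16.3%. The intervals of members contained all of these values. A CCAAT box (CCAAT) was found in 32.3%, against 39.4% inside regions of all 4 libraries and 38.2% of all windows. The octamer ATGCAAAT, bound by OCT4, was found in 0 of 62 windows, an interval of up to 5.78%, against 1.66% of all windows. The ESRRB-type motif AAGGTCA and the KLF-type motif GGGTGTGG were each found in 4 windows (6.45%, 1.79 to 15.7), against 4.08% and 3.63% of all windows. An ETS motif (CCGGAAGT) and a STAT motif (TTCCNGGAA) were found in 1 window each (1.61%), against 5.15% and 1.17% of all windows. The E-box CACGTG was found in 4 windows (6.45%), against 7.84% of all windows. The CRE letters TGACGTCA and the palindrome of NRF1 were in none of the 62 windows and in 2.23% and 1.33% of all windows. Motifs may overlap each other, and these are matches of letters only.

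**Figure D3:**
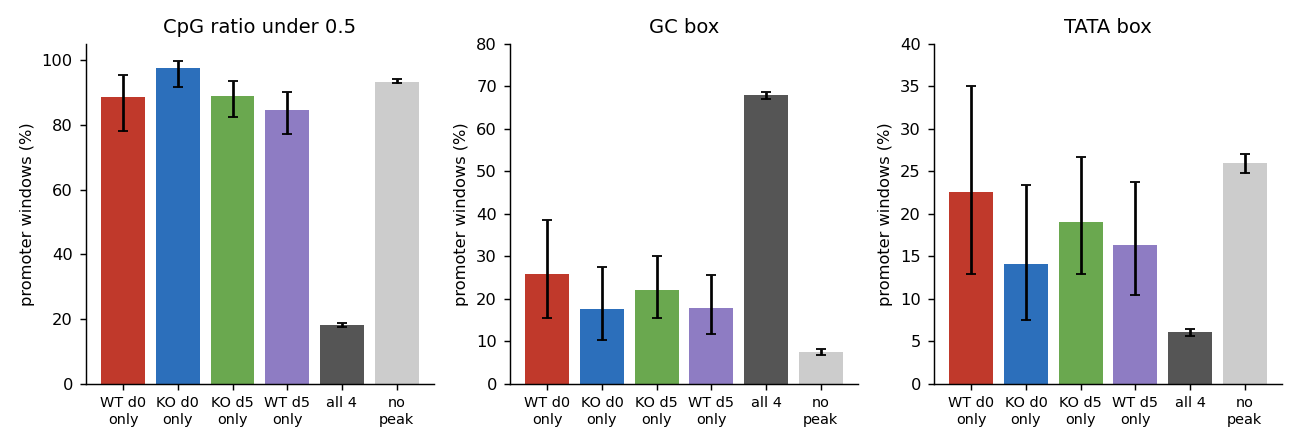
Share (%) of promoter windows of 300 bp with a CpG ratio under 0.5, a GC box or a TATA box, for windows inside regions of 1 library, inside regions of all 4 libraries, or touched by no peak; error bars are 95% exact binomial intervals. Windows inside members (red, 62 windows) have few GC boxes (25.8%) and more TATA boxes (22.6%) than windows inside regions of all 4 libraries (68.0% and 6.06%), as do those of the other single-library sets.

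Some of the 60 genes are named here by role, chosen after their values were seen. In immunity they included Tlr1, Tgtp2, Camp, which encodes an antimicrobial peptide, and Oas3 and Gbp3, which interferon induces. Skin genes were Lce1d and Ivl, the gene of involucrin. Sperm-related genes were Pgk2 and Eppin, a protein of the sperm surface. Metabolic and secreted products included Gckr, the regulator of glucokinase, Cel, a pancreatic lipase, and Gdf15, a stress-induced hormone. Gene regulators were Foxa3, an endoderm factor, Rara, a retinoic acid receptor, Kat7, a histone acetyltransferase, and Sfmbt1, a chromatin reader. At Foxa3 the member lay 12 bp and at Kat7 19 bp from a peak of another library, while at Tlr1 it lay 15352 bp and at Pgk2 14151 bp away.

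Chromosomes contributed members unequally. On chromosome 8, 1227 of 11784 wild-type day 0 peaks were members (10.4%, 9.87 to 11), followed by chromosomes 12 (10.1%, 9.49 to 10.8), 17 (9.56%, 8.94 to 10.2) and 10 (9.21%, 8.66 to 9.78). The lowest autosome was chromosome 7 (6.78%, 6.33 to 7.25), and X had 200 of 4273 (4.68%, 4.07 to 5.36). Over all autosomes the share was 8.13%. Together chromosomes 8, 10, 12 and 17 held 23.9% of the members, against 16.3% of the regions of the day 0 knockout only, and 19.6% of all wild-type day 0 peaks. These 4 chromosomes were picked for their high share of members, so the pooled value was bound to be high and is no separate result. In blocks of 20 Mb along chromosome 8 the share was highest at 40 to 60 Mb (12.8%, 11 to 14.8), the block that holds Zfp42. It was lowest at 120 to 140 Mb (7.29%, 5.99 to 8.78), below the share over all chromosomes. Without the day 5 wild type, the same 4 chromosomes led, with 12.2% on chromosome 8.

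The spread over autosomes was widest against the day 0 knockout and narrowest against wild type at day 5. Over all chromosomes the share of peaks without a counterpart was 15.9% against the day 0 knockout. It was 22.2% against the day 5 knockout and 36.0% against the day 5 wild type. The ratios below are taken at these unlike shares. When the day 0 knockout alone was set against wild type at day 0, the share of peaks without a counterpart ran between 13.0% on chromosome 7 and 20% on chromosome 12, a ratio of 1.53 among autosomes, and X stood below them at 10.1%. Against the day 5 knockout alone the ratio among autosomes was 1.23, with chromosome 8 highest at 25.1% and X at 14.0%. Against wild type at day 5 alone the autosomal ratio was 1.09, between 34.7% on chromosome 11 and 37.8% on chromosome 5, and X stood at 34.4%. Chromosome 8 also took a larger part of the whole list in the day 0 wild type (5.93%) than in the day 0 knockout (5.36%), the day 5 knockout (5.36%) and the day 5 wild type (5.62%). X took 2.15% in the day 0 wild type, 2.50% in the day 0 knockout, 2.92% in the day 5 knockout and 2.17% in the day 5 wild type. Copy number was not tested.

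**Figure D4:**
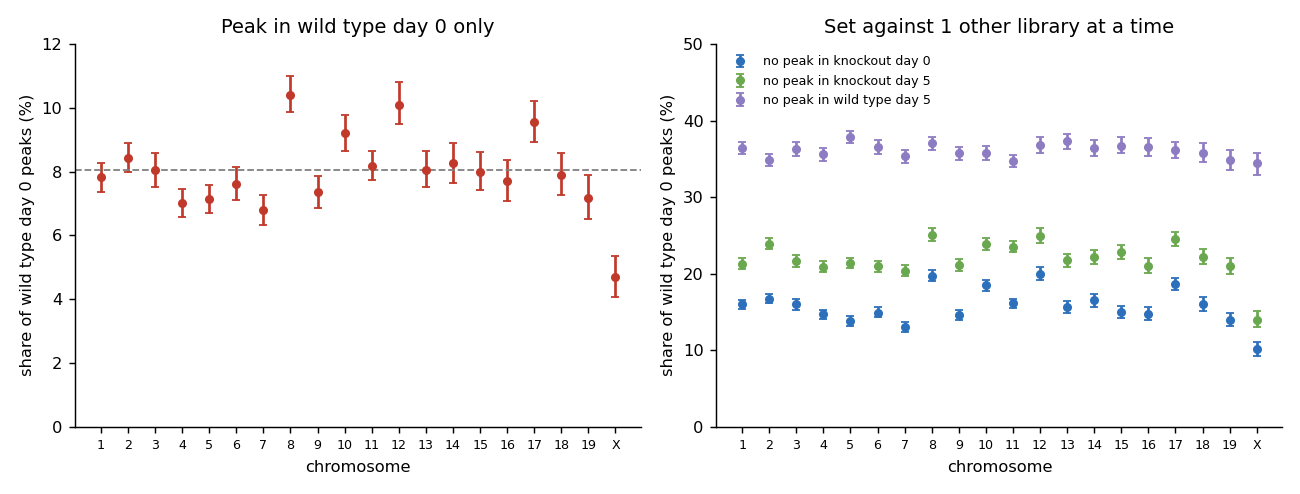
Share (%) of wild-type day 0 peaks by chromosome, with 95% exact binomial intervals. The left panel gives the peaks listed in wild type at day 0 only, with chromosomes 8, 12, 17 and 10 above the share over all chromosomes (dashed line, 8.05%) and X below it. The right panel gives the peaks without an overlapping peak in 1 other library at a time, where the spread between autosomes is 1.53 times in the day 0 knockout, 1.23 times in the day 5 knockout and 1.09 times in wild type at day 5.

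Within 50 kb of a start, 31 protein-coding genes had 7 or more members. Of these, 14 (45.2%) lay on chromosomes 8, 10, 12 or 17, which hold 17.3% of the genes and 23.9% of the members. These chromosomes were picked for their high share of members, so the counts of such genes and windows there are no separate result. Neighbouring genes share members, so 10 loci were taken with at most 1 gene per 100 kb and ties broken by the bases members covered. Ctbp2, a transcriptional corepressor gene on chromosome 7 whose starts lie 66.6 kb apart and so span a wider window, had 11 members among 41 wild-type day 0 peaks. C87436 on chromosome 6 had 9 of 21. The next were Cul9 (8 of 32), a ubiquitin ligase subunit, Stox1 (8 of 26), a forkhead-like factor, Syce2 (8 of 29), a part of the meiotic synaptonemal complex, Papola (8 of 25), the poly(A) polymerase, Fam222a (7 of 32), Zfp42 (7 of 30), Scfd1 (7 of 16), a factor of vesicle fusion, and F13b (7 of 18), a subunit of coagulation factor XIII. They were chosen for their number of members, and other genes also had 7 or 8. The same windows held between 0 and 3 regions of the day 0 knockout only, 0 to 6 of the day 5 knockout only and 0 to 2 of the day 5 wild type only. Of the 7 windows of 100 kb that held 8 members, 4 lay on chromosomes 10, 12 or 17. Those on chromosome 17 lay at 46500001 to 46600000, over Cul9, Srf and Ptk7, and at 71400001 to 71500000, over Smchd1, a chromatin silencing factor, and Ndc80, a kinetochore subunit. The other 3 lay on chromosomes 2 (over Nckap1), 6 (over Tia1 and C87436) and 16 (over Tfrc, the transferrin receptor gene, and Tnk2).

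Zfp42, which encodes REX1, a marker of naive pluripotency, had the most members among the 9 naive pluripotency genes. Within 50 kb of its start (chromosome 8, 43307009, minus strand) lay 30 peaks of the day 0 wild type, 23 of the day 0 knockout, 21 of the day 5 knockout and 18 of the day 5 wild type. Of the wild-type day 0 peaks 7 were members, against 1 region listed in each of the other libraries only. A first group of 3 members was centred at -33323, -34812 and -39381 bp from the start (chr8:43339868-43340796, chr8:43341336-43342307 and chr8:43346023-43346757). Another was centred at -23292 bp, 1 lay inside the gene 8593 bp from the start (chr8:43298031-43298801), and 2 lay downstream at 17160 and 32919 bp. All 7 were at least 554 bp from any peak of another library. The peaks at the start itself were shared, with 2 in every library. The number of members there was 8 without the day 0 knockout, 7 without the day 5 knockout and 9 without the day 5 wild type, and 4 of the members were at least 800 bp wide. Zfp42 lies on the chromosome with the highest share of members.

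**Figure D5:**
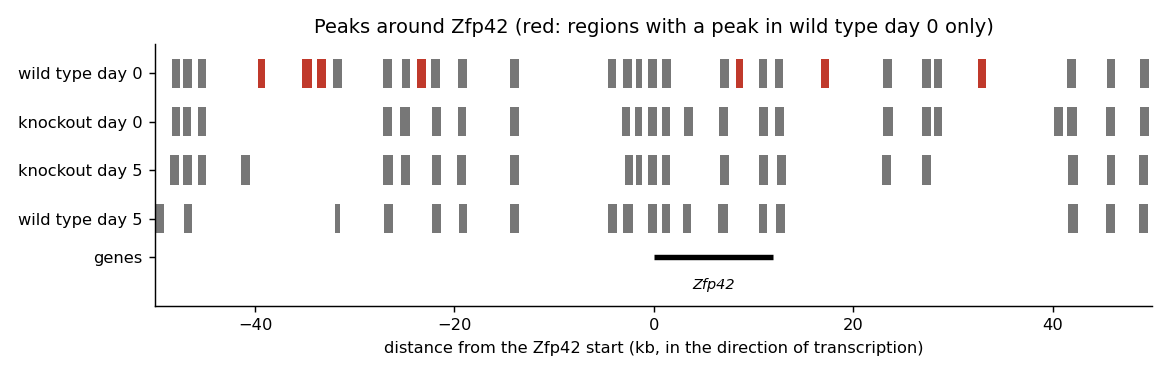
Peaks within 50 kb of the Zfp42 start in each library (rows), placed by distance from the start in kb along the direction of transcription; the black bar is the gene. The 7 members (red) lie on both sides of the start in the wild-type day 0 row, 1 of them inside the gene, while grey peaks overlap peaks of at least 1 other library or belong to other libraries.

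The 6 pluripotency loci named next held between 0 and 2 members each, where the median over all genes was 1. Pou5f1, which encodes OCT4, had 1 member among 30 wild-type day 0 peaks, centred at -29591 bp (chr17:35475966-35476916), and Nanog had 1 of 31, at -29438 bp (chr6:122677525-122678577). Sox2 had 0 of 22 and Utf1, a chromatin factor of stem cells, 0 of 19. Esrrb, a nuclear receptor of the naive state, had 2 of 33, both inside the gene, and Klf4 had 1 of 9, at -1600 bp. Among genes of differentiation, Fgf5 had 0 of 7, Otx2 2 of 24 and the neural regulator Pax6 2 of 21. Cdc14a had 1 member of 18 peaks (chr3:116422587-116423308, 722 bp, inside the gene and 53 bp from a peak of another library), and Cdc14b 1 of 15 (42 bp away). The member at Cdc14a reached within 1 kb of the start, where the day 0 wild type had 4 peaks and each other library 3. At the Cdc14b start the day 0 wild type and both knockout libraries had 3 peaks each, and the day 5 wild type 2. Where the deletions lie is not given in the sources used here, and these peaks do not test the genotype.

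Over all genes, 56.0% had a member within 50 kb, and members made up 7.62% of the distinct wild-type day 0 peaks in those windows (7.47 to 7.78). The 21 gene lists are set beside these values. In the core pluripotency list 5 of 7 genes had a member, and members were 7 of 177 peaks (3.95%, 1.60 to 7.98). The same windows held 21 regions of the day 0 knockout only, 19 of the day 5 knockout only and 7 of the day 5 wild type only. These sets differ in size. Over all genes the windows held 8856 members, against 13710, 14939 and 10358 regions in the same order. Naive pluripotency genes had one at 4 of 9 genes and 12 of 175 peaks (6.86%, 3.59 to 11.7), 7 of them at Zfp42. Formative genes stood at 5 of 8 genes and 5.67% of peaks, with Dnmt3b, a DNA methyltransferase, at 3 members of 21 peaks. In the LIF and STAT3 pathway 9 of 12 genes had one, led by the ligand gene Lif (4 of 30) and its receptor Lifr (3 of 25), with 5.07% of peaks in all.

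Polycomb and Trithorax genes, whose complexes silence and activate developmental genes, had members at 13 of 15 loci, where the share over all genes was 56.0%. Members were 31 of 300 peaks there (10.3%, 7.13 to 14.3), an interval that contains the 7.62% over all genes. Mtf2, a Polycomb complex subunit, had 5 of 30 and Kmt2d, an H3K4 methyltransferase, 5 of 26. Suz12 and Ezh1, both parts of Polycomb complex 2, and Ring1 had 3 of 22 each. Other genes of the list had fewer, with Ezh2 at 2 of 12, Jarid2 at 1 of 24, and Eed and Pcgf6 at 0 of 19 each. The windows of the whole list held 32 regions of the day 0 knockout only, 20 of the day 5 knockout only and 10 of the day 5 wild type only. Over all genes the numbers were 8856 members, against 13710, 14939 and 10358 regions in the same order. Housekeeping loci had members at 10 of 11 genes and in 8.44% of peaks, with Rpl13a at 5 of 35.

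Lineage lists had shares of 6.25% for neural progenitor, 8.39% for neuron, 5.65% for mesoderm, 2.44% for endoderm (2 of 82 peaks, both at Foxa1), 4.00% for trophoblast, 3.88% for neural crest and epidermis, and 6.03% for blood and endothelium. Macrophage genes had 8.66%, fibroblast genes 8.25%, germ line genes 6.67%, Hox genes 7.30%, imprinted genes 5.65%, mitotic genes 6.33% and genes of Wnt, FGF and BMP signalling 5.20%. For genes of the 2-cell-like state the value rests on 2 of 18 peaks (11.1%). In all 21 lists the interval contained the value over all genes, and 15 lists lay below it.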

How the data were processed

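Accessible regions were measured by single-nucleus ATAC-seq in 4 libraries, 1 per group. The authors deposited 1 peak list per library, whose other values are only the start and end positions of peaks, with no count or signal. Peaks came from cellranger-arc 2.0.0 with an mm10 reference, per the file headers, 1 library at a time, and the submitters' processing notes also name Scanpy 1.7.2. Depth is unknown.

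The lists were merged as described above with Python 3.11.15, pandas 2.3.3 and numpy 2.4.6, and exact (Clopper-Pearson) 95% intervals were computed with scipy 1.17.1. The merging was tested on simulated lists. Gene starts came from a RefSeq promoter table (GRCm38.p6) that covers 17492 of 21887 protein-coding genes. The other 4395 genes entered only as gene bodies, so shares at starts are too low. Of the list genes, 214 of 302 had a start.

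Members and lists were chosen with earlier results of these data known. Named genes were 12 fixed genes, list genes with a member at the start, the 10 loci with most members, the 10 widest members, the 10 widest sole start peaks, the densest windows (7 tied), the 3 remotest members, and regions at the edge of the rule. Members of a list named beyond this were chosen after their values were seen. With a single library in each group, nothing was tested. Alternatives were a reciprocal overlap of 50%, a gap of 500 bp, the widest peaks in equal numbers (189571), a width of 800 bp, leaving out each other library, autosomes only and other windows. Both gene ends were added as an alternative after the data were seen.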

Additional observations from a re-analysis of the deposited data

How the results depend on the processing

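Depth is unknown, and with 1 library per group no setting gives a replicate check. No paired analysis was possible because each group has a single library.

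The number of members, 16007 in the text, was 10149 with a width of at least 800 bp and ran between 18978 and 35252 when 1 other library was left out, highest without the day 0 knockout. The other settings kept it between 11918 and 20336. The share of members at gene starts, 2.42% in the text, was 1.13% with a gap of 500 bp, 3.29% with the widest peaks in equal numbers, 1.09% with a width of at least 800 bp, 0.981% and 4.92% with windows of 500 bp and 2 kb, and 6.96% with both ends of all protein-coding genes. It ran between 2.16% and 2.61% when 1 other library was left out. In the same order the genes with a member at the start, 397 in the text, numbered 134, 682, 110, 158, 808 and 1203, and between 475 and 925 when 1 other library was left out, again highest without the day 0 knockout. Genes with a member within 50 kb, 9788 in the text, numbered 3462 within 10 kb, and between 10516 and 13272 when 1 other library was left out. The windows and widths change these counts by construction.

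Chromosomes 8, 12, 17 and 10 led under every setting that left out 1 library, with the widest peaks in equal numbers and with a gap of 500 bp. Chromosome 8 was highest in each of these, between 8.17% and 20.5%.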
